A study of Homo sapiens with 5 samples.

Results

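The carcinoma line SU86.86 was set against HPDE, an immortalised line of pancreatic duct epithelium, gene by gene across the whole array. The genes compared were the 14896 whose brightest line reached the median intensity of the array, of 19775 genes with a probe set that names 1 gene. The series holds 5 one-colour Affymetrix expression arrays, 1 each for SU86.86, HPDE and the carcinoma lines PANC1, HPAF1 and L3.6. None of the lines was treated, and all were grown by the culture collection's protocol, with the medium not given. SU86.86 was derived from a liver metastasis of a pancreatic duct carcinoma, and the HPDE lines in wide use were immortalised with the E6 and E7 genes of a human papillomavirus. Both statements are background. The source label calls every line, HPDE included, a pancreatic cancer line, and does not say which HPDE derivative or passage was used. Each line is 1 established line from 1 person, so a difference between SU86.86 and HPDE is a difference between these arrays and has no replicate check. No p-value is given for that reason.

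Duct carcinoma cells keep the simple keratins and junctions of the gland lining from which they arise. Duct epithelium kept in culture can also carry basal keratins and proteins of the cornified envelope, as squamous epithelia do. Carcinoma lines differ among themselves in how far they hold epithelial genes and in which cytokines, matrix proteins and proteases they make. Levels here are log2(intensity + 71.1), where 71.1 intensity units is the 25th percentile of the positive values. All differences are SU86.86 minus HPDE on that log2 scale unless another line is named. The added constant shrinks the difference of dim genes, and a level under 7.72 lies below the array median used as the level filter. A gene is called higher or lower where the difference is at least 2-fold, which is 1 on the log2 scale.

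SU86.86 stood at least 2-fold above HPDE for 1257 genes, or 8.44% of those compared, and at least 2-fold below it for 1150, or 7.72%. At 4-fold the counts were 358 higher and 215 lower. The median difference over all genes was -0.02, and the median size of the difference was 0.32. Median intensity per array ran from 137 to 143 over the 5 lines. The 9 spike-in control probe sets differed by -0.32 to 0.06 between the SU86.86 and HPDE arrays, with a median of -0.14. Where a called gene had several probe sets above the filter, every set pointed the same way for 1148 of 1323 genes, or 86.8%, and every set passed 2-fold for 550, or 41.6%.

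**Figure D1:**
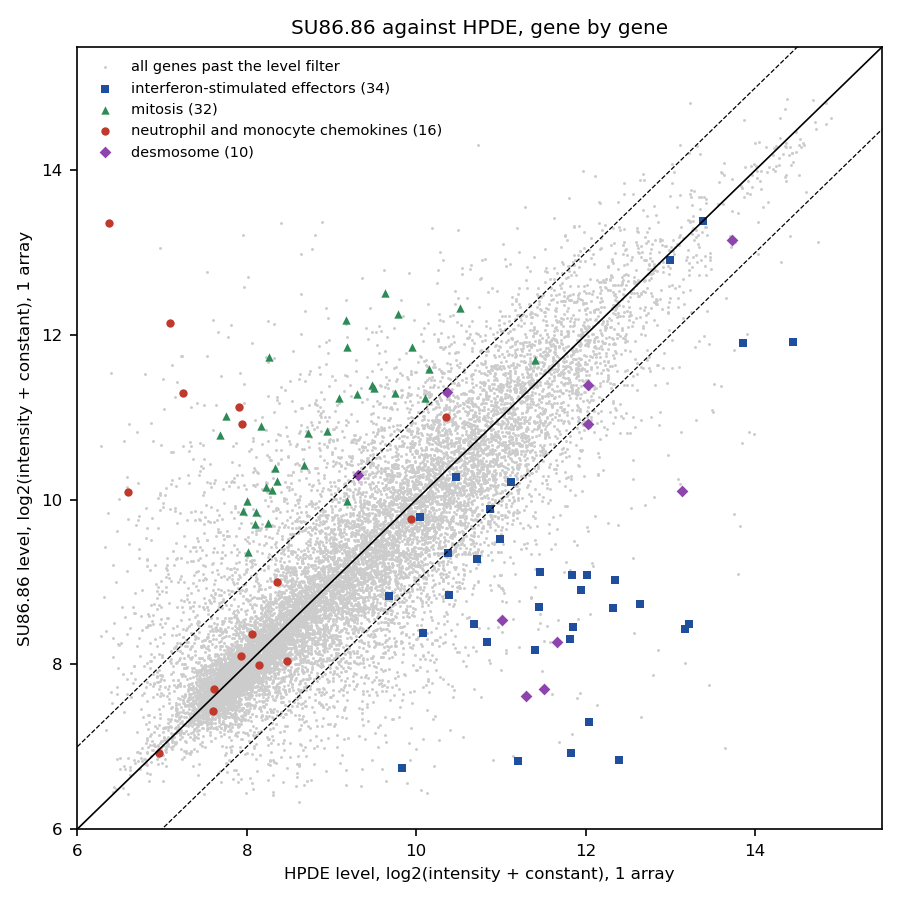
Level of each gene in SU86.86 (vertical) against HPDE (horizontal), both as log2(intensity + constant), with 1 array per line; the solid line marks equal levels and the dashed lines 2-fold. Interferon-stimulated and desmosome genes lie mostly below the diagonal, while mitosis genes and a set of 6 chemokine genes lie above it.

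Of the 1257 genes higher in SU86.86, 145 were also at least 2-fold higher than HPDE in all of PANC1, HPAF1 and L3.6, and 321 were higher in none of them. Of the 1150 lower genes, 298 were lower in all 3 and 228 in none. Every one of these contrasts uses the same HPDE array. The background in the other lines was 8.47% higher and 9.26% lower for PANC1, 7.78% and 9.27% for HPAF1, and 6.55% and 8.59% for L3.6. In a stricter class SU86.86 lay at least 2-fold above every other line, HPDE included, for 185 genes (1.24%), and at least 2-fold below every other line for 35 (0.235%). The looser class, called against HPDE in SU86.86 and in no other carcinoma line, held the 321 higher genes (2.15%) and the 228 lower genes (1.53%). For 38 of the 185 genes above every line, no other line reached the level filter.

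The identity genes were epithelial in both lines. EPCAM, the epithelial adhesion molecule, was at 13.19 in SU86.86 and 12.06 in HPDE. KRT8 was at 13.56 and 11.29, KRT18 at 14.82 and 13.23, and KRT19 at 13.52 and 12.67, in the same order. All 19 pan-epithelial markers were above the filter in both lines, whereas 11 were in PANC1. Of 12 duct markers compared, 5 were higher in SU86.86 and 1 lower (median 0.57), where 8.44% of all genes were higher and 7.72% lower. Without probe sets ending in _x_at or _s_at, which can match several transcripts, 1 of 7 was higher and 1 lower (median 0.29). SOX9, the transcription factor that marks ducts, was at 11.54 in SU86.86, 7.92 in HPDE, 11.36 in PANC1, 10.77 in HPAF1 and 9.38 in L3.6, so HPDE was the lowest of the 5.

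Markers of cell types other than duct epithelium were mostly near background in both lines. Of 11 leukocyte markers, 2 were above the filter in either line, with a summed intensity of 1168 in SU86.86 and 1189 in HPDE. Of 8 acinar markers 1 passed in either line, with sums of 920 and 852. Of 12 fibroblast markers 5 passed in either line, with sums of 2933 and 2605. Of 13 hepatocyte markers 5 passed in SU86.86 and 4 in HPDE, and of 10 endocrine markers 3 passed in either line. The clearest exceptions were SERPINA1 of the hepatocyte list, at 10.48 in SU86.86 and 10.29 in HPDE, and COL1A1 of the fibroblast list, at 10.05 and 10.17. In the endocrine list PAX6 was at 9.33 and 8.60 and ISL1 at 9.27 and 8.34. None of the leukocyte, acinar, fibroblast, hepatocyte or endocrine markers compared was called between the lines. Of 5 endothelial markers compared 2 were higher, ENG at 9.63 against 7.76 and ESAM at 9.21 against 7.49, while PECAM1 differed by 0.20.

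Sequences upstream of a few genes are shown. The genes were picked because they were themselves called higher or lower in SU86.86. The first set holds the 5 CXC chemokine genes of human chromosome 4 that were called higher in SU86.86, whose products draw neutrophils through the receptor CXCR2. Each window below, from RefSeq on build GRCh38.p14, is the 150 bases before the start site, written 5′ to 3′ on the gene's strand. Capitals mark GGAATTTCC, 1 form of the site bound by NF-kB.
CXCL1: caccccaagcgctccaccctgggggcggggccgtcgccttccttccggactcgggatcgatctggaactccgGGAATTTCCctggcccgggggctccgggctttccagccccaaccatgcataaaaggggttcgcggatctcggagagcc
CXCL3: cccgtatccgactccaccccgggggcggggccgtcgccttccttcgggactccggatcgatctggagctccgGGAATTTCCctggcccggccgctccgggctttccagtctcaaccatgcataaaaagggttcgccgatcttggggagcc
CXCL5: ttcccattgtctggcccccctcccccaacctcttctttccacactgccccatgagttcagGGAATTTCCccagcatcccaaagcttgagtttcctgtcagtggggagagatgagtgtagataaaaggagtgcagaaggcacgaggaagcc
CXCL6: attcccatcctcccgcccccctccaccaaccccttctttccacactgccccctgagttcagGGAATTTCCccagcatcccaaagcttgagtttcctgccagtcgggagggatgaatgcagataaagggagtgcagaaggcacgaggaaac
CXCL8: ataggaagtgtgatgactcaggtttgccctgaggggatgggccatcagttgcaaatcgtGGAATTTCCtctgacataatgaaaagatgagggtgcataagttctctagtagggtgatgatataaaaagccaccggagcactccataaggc

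The CXCL1 window is chr4:73869243-73869392 on the plus strand, CXCL6 is chr4:73836528-73836677 and CXCL8 is chr4:73740419-73740568, both plus. CXCL3 is chr4:74038690-74038839 and CXCL5 is chr4:73998678-73998827, both on the minus strand. The capitals begin 78 bases before the start site in CXCL1 and CXCL3, 90 in CXCL5, 89 in CXCL6 and 91 in CXCL8. Set side by side on those letters, CXCL1 and CXCL3 share 86% of their bases and CXCL5 and CXCL6 share 90.6%, so these are near copies of each other and not independent examples. Searched on both strands of the 300-base windows that run from 250 before to 50 after each start, the letters occur in 0.462% of all 35093 windows. They occur in 6 of the 10 chemokine genes of the list that have a window, namely these 5 and CXCL2, and in none of 14 genes of the interleukin-1 and IL6 families. CXCL2 holds them but was not called, at 11.01 in SU86.86 and 10.36 in HPDE, and CCL20 was called without them. A match describes the letters in the window and does not show that a factor binds there.

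The second set is from interferon-stimulated genes, a list mostly lower in SU86.86 than in HPDE. ISG15 was at 11.91 in SU86.86, 14.45 in HPDE, 9.60 in PANC1, 12.95 in HPAF1 and 8.88 in L3.6, so SU86.86 was not its lowest line. Capitals mark the core of the interferon-stimulated response element on either strand, searched as GAAA, any 2 bases and GAAA again.
IFIT1: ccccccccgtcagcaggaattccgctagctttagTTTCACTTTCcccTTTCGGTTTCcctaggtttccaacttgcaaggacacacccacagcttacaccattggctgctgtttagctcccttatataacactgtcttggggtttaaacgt
ISG15: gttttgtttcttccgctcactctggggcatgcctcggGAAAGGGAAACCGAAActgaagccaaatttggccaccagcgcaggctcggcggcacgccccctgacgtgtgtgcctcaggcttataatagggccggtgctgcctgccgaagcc
BST2: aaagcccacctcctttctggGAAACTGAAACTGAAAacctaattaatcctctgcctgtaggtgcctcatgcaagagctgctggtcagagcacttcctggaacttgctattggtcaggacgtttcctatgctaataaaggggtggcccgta

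The IFIT1 window is chr10:89392473-89392622 on the plus strand, ISG15 is chr1:1013347-1013496 on the plus strand, and BST2 is chr19:17405631-17405780 on the minus strand. Each holds 2 matches, which overlap in ISG15 and BST2. The first begins 116 bases before the start site in IFIT1, 113 in ISG15 and 130 in BST2. Over the 300-base windows the letters occur in 3.58% of all windows, in 3.84% of the 11886 genes past the level filter with a window, and in 21 of 27 interferon-stimulated effector genes. Among 145 genes for which SU86.86 was at least 2-fold above every other line, 6 hold this element (4.14%) and 6 hold the NF-kB site (4.14%). Of genes past the filter 0.581% hold the NF-kB site. The 6 genes with the NF-kB site include the 5 chemokine genes printed above, with near copies among them. Their share thus rests mostly on those chemokines and does not describe the class as a whole.

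The chemokine and cytokine genes separated SU86.86 from HPDE and, for several of them, from every other line. Of 16 neutrophil and monocyte chemokine genes compared, 6 were higher and none lower (median 0.47), and 5 of the 6 were above every other line. Over all genes 8.44% were higher, 7.72% lower and 1.24% at least 2-fold above every other line. CXCL5 was at 13.36 in SU86.86, 6.37 in HPDE, 6.45 in PANC1, 11.21 in HPAF1 and 11.66 in L3.6. It had the largest difference of all genes, 6.99, which is 127-fold after the added constant. PANC1 was as low as HPDE, and HPAF1 and L3.6 lay between. CXCL8, the chemokine also called interleukin-8, was at 12.15 in SU86.86, 7.09 in HPDE, 6.89 in PANC1, 10.54 in HPAF1 and 10.35 in L3.6, again high in SU86.86, intermediate in HPAF1 and L3.6 and low in HPDE and PANC1.

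CXCL1 showed the widest gap of these to the next line. It was at 11.29 in SU86.86, 7.25 in HPDE, 7.58 in PANC1, 8.45 in HPAF1 and 8.35 in L3.6. CXCL6 was at 10.10 in SU86.86 and between 6.59 and 7.62 in the other 4. CXCL3 was at 11.13 in SU86.86, 7.90 in HPDE and 9.30 in HPAF1, its next highest line. The sixth gene, CCL20, which draws lymphocytes and dendritic cells through CCR6, was at 10.93 in SU86.86 and 10.76 in HPAF1 against 7.94 in HPDE, so it was not particular to SU86.86. CCL2, the monocyte chemokine, did not separate the lines compared here, at 6.92 in SU86.86 and 6.96 in HPDE, while PANC1 was at 12.32. The CXCL5 and CXCL8 probe sets used can cross-hybridise with related transcripts, and their other probe sets differed by at least 4.30 and 4.03. CXCL1, CXCL3 and CXCL6 had 1 usable probe set each, and near copies among them could share signal.

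The interleukin-1 and IL6 families followed the same direction in SU86.86, with 8 of 16 genes higher and none lower (median 0.95). The shares over all genes were 8.44% higher and 7.72% lower. PANC1 had 4 higher and 4 lower, HPAF1 3 and 3, and L3.6 2 and 3. IL11, a cytokine that signals through gp130, was at 10.66 in SU86.86, 6.99 in HPDE, 8.60 in PANC1, 6.84 in HPAF1 and 7.58 in L3.6. Its other probe set differed by 0.72. With no added constant a different probe set had the highest mean and stood for IL11, at 0.96, which ends the call. IL6 itself was low, at 8.44 in SU86.86 and between 7.16 and 7.30 in the other 4 lines, of which none reached the filter. LIF was at 10.69 in SU86.86 and 7.45 in HPDE, but PANC1 at 10.29 and HPAF1 at 10.27 were close to SU86.86. Among the receptors, OSMR was at 11.39 against 9.59 and the decoy receptor IL1R2 was at 9.25 against 7.30. LIFR was at 9.80 against 6.73 on the probe set used, but another of its sets gave -0.32.

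IL1A, the alarmin interleukin-1 alpha, set SU86.86 and HPDE apart from the rest together. It was at 13.06 in SU86.86, 11.99 in HPDE, 7.35 in PANC1, 8.30 in HPAF1 and 7.69 in L3.6. The 2 lines differed by 1.07, or by 0.33 with the probe sets averaged, and both were several log2 units above the other 3 carcinoma lines. IL1B followed, at 11.21 in SU86.86 and 10.64 in HPDE against 7.99 to 8.18 in the others. TNFAIP3, which encodes the NF-kB inhibitor A20, was at 11.92 in SU86.86, 8.93 in HPDE, 8.26 in PANC1, 8.82 in HPAF1 and 9.76 in L3.6, and was named after its values were seen.

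**Figure D2:**
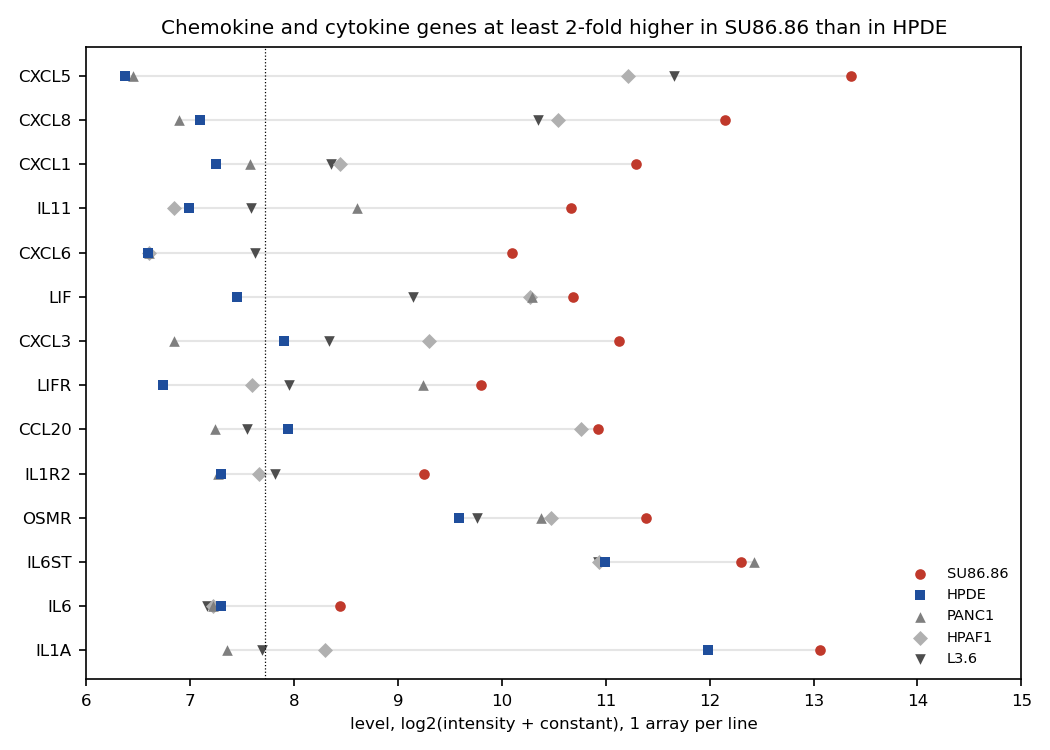
Level of the chemokine and cytokine genes called higher in SU86.86 than in HPDE, as log2(intensity + constant), 1 point per line and 1 array per line; the dotted line is the level filter at 7.72. SU86.86 is the rightmost point for every gene shown except IL6ST, where PANC1 is higher, and HPDE lies near SU86.86 for IL1A.

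Other secreted defence proteins also stood high in SU86.86. CST6, a secreted cysteine protease inhibitor, was at 13.22 in SU86.86, 7.96 in HPDE, 7.19 in PANC1, 8.67 in HPAF1 and 7.22 in L3.6. Its gap of 4.55 log2 units to the next line was the widest of the genes above every line. PTX3, a soluble pattern recognition protein, was at 11.54 in SU86.86, 6.40 in HPDE, 8.09 in PANC1, 6.42 in HPAF1 and 8.28 in L3.6. LCN2, the iron-binding lipocalin, was at 14.31 in SU86.86, 10.73 in HPDE and 12.28 in HPAF1. Of 12 antimicrobial and antiprotease genes compared, 3 were higher (CST6, LCN2 and WFDC2, each above every other line) and 2 lower, among them SLPI at 11.60 against 13.02. Among all genes 8.44% were higher, 7.72% lower and 1.24% at least 2-fold above every other line. Of 13 complement genes 5 were higher and none lower (median 0.36). C3, the central complement component, was at 11.41 in SU86.86 and 7.97 in HPDE, with L3.6 at 10.87.

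Several activin and TGF-beta genes were highest in SU86.86. Activin and TGF-beta are related ligands that signal through SMAD proteins, and follistatin and gremlin bind ligands of this family outside the cell. Of 32 genes compared, 10 were higher and 6 lower (median 0.32), and 4 of the 10 were above every other line. The shares over all genes were 8.44%, 7.72% and 1.24%, in the same order. HPAF1 had 13 higher and 1 lower (median 0.65), and PANC1 and L3.6 had 8 higher and 4 lower each. INHBA, the activin A subunit, was at 11.25 in SU86.86, 7.15 in HPDE, 7.15 in PANC1, 7.23 in HPAF1 and 8.19 in L3.6. GREM1, which encodes gremlin, was at 11.18 in SU86.86 and between 7.10 and 8.20 in the other 4 lines. INHBA and GREM1 were thus both high in SU86.86 and near background in HPDE.

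FST, which encodes follistatin, was at 12.50 in SU86.86, 8.65 in HPDE, 7.55 in PANC1, 7.67 in HPAF1 and 10.88 in L3.6. PMEPA1, a TGF-beta-responsive membrane protein, was at 12.99 in SU86.86 and 8.64 in HPDE, with the other carcinoma lines between 11.13 and 11.39. TGFB2 was higher in all 4 carcinoma lines, at 10.65 in SU86.86, 10.88 in PANC1, 10.74 in HPAF1 and 9.60 in L3.6 against 7.34. The 6 lower genes included SMAD4 and SMAD2, named after their values were seen. SMAD4, the shared partner of the pathway, was at 8.63 in SU86.86, 10.36 in HPDE, 9.87 in PANC1, 9.37 in HPAF1 and 9.48 in L3.6, and its other probe set differed by -1.21. SU86.86 was the lowest line for SMAD4, though not 2-fold below HPAF1.

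Genes of the plasminogen system, matrix proteases and their inhibitors were in part higher as well. Of 19 genes of this list, 10 were higher and 1 lower (median 1.08), where 8.44% of all genes were higher and 7.72% lower. PANC1 had 2 higher and 4 lower, HPAF1 8 and 1, and L3.6 6 and 4. The 10 higher genes include the protease inhibitors TIMP1 (1.18), TIMP2 (1.22) and SERPINE2 (2.08). The 1 lower gene was the inhibitor TIMP3 (-1.98). PLAT, the tissue plasminogen activator, was at 11.75 in SU86.86, 7.23 in HPDE, 6.86 in PANC1, 7.12 in HPAF1 and 10.08 in L3.6. PLAU, the urokinase activator, was higher in all 4 carcinoma lines, at 12.43 in SU86.86 against 9.82 in HPDE and 11.13 to 12.08 in the others. THBS1, the matrix protein thrombospondin-1, was at 12.33 in SU86.86, 9.45 in HPDE, 7.37 in PANC1, 8.57 in HPAF1 and 9.45 in L3.6, and its 4 other probe sets all passed 2-fold.

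Of 19 collagens compared, 3 were higher and 5 lower (median -0.04). The counts of this paragraph stand beside 8.44% of all genes higher and 7.72% lower. COL8A1, a short-chain collagen, was at 11.12 in SU86.86 and between 6.69 and 7.34 in the other 4 lines. COL6A1 was at 11.74 against 7.22 on the probe set used, but 5 of its 7 other sets did not pass 2-fold and the weakest gave -0.25. The third higher gene, COL18A1, a basement membrane collagen, was at 9.86 against 8.48. The lower genes were COL16A1 and 4 type IV chains of basement membranes. COL4A2 was at 7.48 in SU86.86 and 9.81 in HPDE and COL4A1 at 8.13 and 9.85, while L3.6 was above HPDE for both. The 8 laminins compared held no called gene, and of 14 integrins 3 were higher and none lower. ITGA2, the collagen-binding integrin subunit, was at 12.59 in SU86.86, 7.97 in HPDE, 11.24 in PANC1, 12.09 in HPAF1 and 10.76 in L3.6, so HPDE alone was low.

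Of 21 mesenchymal genes 6 were higher and 1 lower (median 0.34), where 8.44% of all genes were higher and 7.72% lower. Without probe sets that can cross-hybridise, 2 of 15 were higher and none lower (median 0.13). CDH2, which encodes N-cadherin, was at 11.53 in SU86.86, 6.80 in HPDE, 10.61 in PANC1, 7.10 in HPAF1 and 7.45 in L3.6. SU86.86 and PANC1 held it and the other 3 lines were near background. VIM, which encodes vimentin, was at 12.71 in SU86.86, 8.02 in HPDE, 14.74 in PANC1, 9.52 in HPAF1 and 13.84 in L3.6 on the probe set used, and differed by 0.10 on its other set. SPARC, a matrix glycoprotein, went the other way, at 6.84 in SU86.86 and 10.91 in HPDE, with the other carcinoma lines between 6.94 and 7.01, and differed by -0.58 without probe sets that can cross-hybridise.

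**Figure D3:**
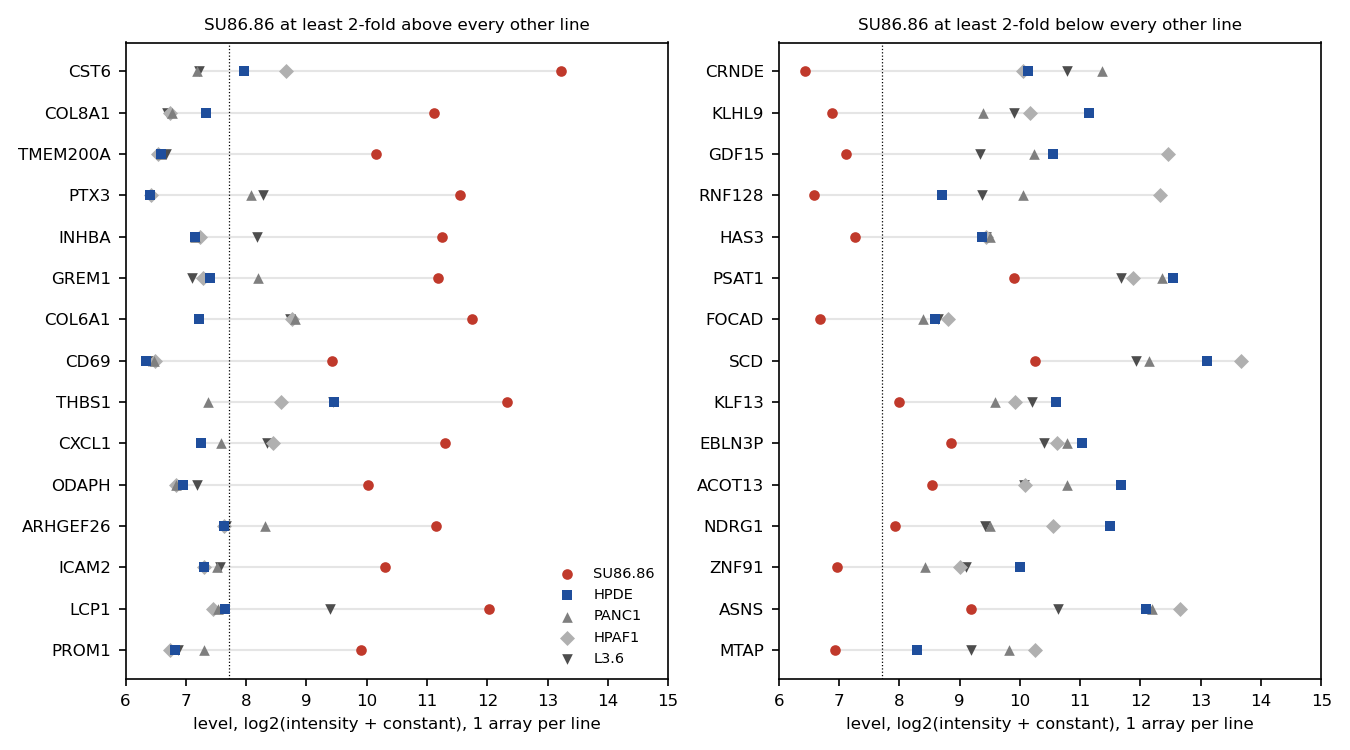
Level of the 15 genes with the widest gap by which SU86.86 lay above (left) or below (right) every other line, as log2(intensity + constant), 1 array per line; the dotted line is the level filter at 7.72. In the left panel the other 4 lines mostly lie near the filter, whereas in the right panel all 4 lie above it.

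The presentation genes differed by class. Of 11 MHC class II genes, which display peptides to helper T cells, 4 were higher in SU86.86 and none lower (median 0.60). Above every other line were 3 of them. Among all genes 8.44% were higher, 7.72% lower and 1.24% above every other line. HLA-DPB1 was at 9.21 in SU86.86 and between 6.96 and 7.21 in the other 4 lines. HLA-DRA was at 9.52 in SU86.86, 7.73 in HPDE, 8.04 in PANC1, 7.64 in HPAF1 and 7.99 in L3.6. The class II transactivator CIITA differed by 0.03 and the invariant chain CD74 by 0.03. With probe sets that can cross-hybridise left out, the class II median was 0.03, so the level of the group rests on such sets.

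Few MHC class I presentation genes were called in SU86.86. Of 18 genes 2 were higher and none lower (median 0.29), close to the 8.44% higher and 7.72% lower over all genes. PANC1 had 9 lower, HPAF1 1 and L3.6 6. PSMB9, a subunit of the immunoproteasome, was at 11.26 in SU86.86, 9.62 in HPDE, 8.70 in PANC1, 10.58 in HPAF1 and 8.79 in L3.6. B2M, the class I light chain, was at 14.27 and 14.22 in SU86.86 and HPDE. CD274, which encodes the checkpoint ligand PD-L1, was at 11.23 in SU86.86, 8.91 in HPDE, 6.65 in PANC1, 7.65 in HPAF1 and 6.88 in L3.6. SU86.86 was thus above HPDE while every other carcinoma line was below it, and the other CD274 probe set differed by 2.02.

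The interferon-stimulated effector genes were the list with the largest share of members lower than in HPDE. These are the antiviral proteins that cells make in response to interferon. Of 34 compared, 27 were lower in SU86.86 and none higher (median -2.65), where 7.72% of all genes were lower. The count was 31 in PANC1, 21 in HPAF1 and 28 in L3.6, all against the same HPDE array, so a high state of HPDE and a low state of the carcinoma lines cannot be told apart. IFIT1 was at 8.49 in SU86.86, 13.22 in HPDE, 8.20 in PANC1, 11.06 in HPAF1 and 8.63 in L3.6. BST2, the tetherin that holds budding virus at the membrane, was at 6.84 in SU86.86, 12.40 in HPDE, 6.74 in PANC1, 11.91 in HPAF1 and 7.08 in L3.6. SU86.86, PANC1 and L3.6 were low for both genes, and HPAF1 stood near HPDE for BST2.

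MX1, the antiviral GTPase, was at 8.43 in SU86.86, 13.18 in HPDE, 6.91 in PANC1, 11.78 in HPAF1 and 7.19 in L3.6. RSAD2 was at 7.31 against 12.04 and IFI44L at 6.93 against 11.82. IFITM3 and IFITM2, whose probe sets can cross-hybridise with each other, differed by 0.01 and -0.08 and were high in both lines. Among 22 interferon signalling genes 5 were lower and 1 higher (median -0.20), where 7.72% of all genes were lower and 8.44% higher. IRF9, the DNA-binding part of the interferon-activated complex, was at 8.61 in SU86.86 and 12.05 in HPDE, whereas IRF1 differed by 0.06. The higher gene was SOCS3, a feedback inhibitor of cytokine receptors, at 10.23 in SU86.86, 7.12 in HPDE and 10.84 in PANC1. When no constant was added, a different probe set stood for SOCS3, with a difference of 0.51.

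Basal and squamous genes were also lower than in HPDE. Of 8 basal keratin and basal cell genes, 6 were lower and 1 higher (median -2.70), where 7.72% of all genes were lower and 8.44% higher. KRT14, the basal keratin, was at 6.99 in SU86.86, 13.64 in HPDE, 7.19 in PANC1, 7.39 in HPAF1 and 7.44 in L3.6. It had the largest negative difference of all genes, -6.66, and all 4 carcinoma lines were below the filter. Its partner KRT5 was at 9.68 in SU86.86, 13.83 in HPDE, 7.30 in PANC1, 7.26 in HPAF1 and 12.41 in L3.6, so SU86.86 and L3.6 were above the filter, both at least 2-fold below HPDE, and PANC1 and HPAF1 were under it. The 1 higher gene, DST, reverses to -3.83 when probe sets that can cross-hybridise are left out.

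Of 16 cornified envelope genes 7 were lower and 2 higher (median -0.72), where 7.72% of all genes were lower and 8.44% higher. CSTA, an intracellular protease inhibitor of keratinocytes, was at 7.75 in SU86.86, 13.46 in HPDE, 6.80 in PANC1, 7.01 in HPAF1 and 10.30 in L3.6. SPRR3 was at 8.18 against 12.85. The 2 higher genes, KRT4 and SCEL, were above every other line, with KRT4 at 9.36 in SU86.86 against 7.71 in HPDE and SCEL at 11.31 against 9.74. PANC1 and HPAF1 had no member of this list at least 2-fold above HPDE, and L3.6 had 1. Of 13 S100 genes, small calcium-binding proteins, 4 were lower and none higher. S100A8 was at 7.87 in SU86.86 and 12.80 in HPDE, whereas its partner S100A9 was at 11.61 in SU86.86, 12.07 in HPDE and 6.83 to 7.03 in the other lines.

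Desmosomes, the spot junctions that anchor keratin filaments, were lower too, with 6 of 10 genes lower and none higher (median -1.80). The counts of this paragraph stand beside 7.72% of all genes lower and 8.44% higher. DSG3 was at 7.70 in SU86.86 and 11.52 in HPDE, and DSC3 at 7.61 and 11.30. DSP, the plakin that links the junction to keratin, was at 10.11 in SU86.86, 13.14 in HPDE, 8.50 in PANC1, 11.61 in HPAF1 and 10.61 in L3.6. Tight junction and apical genes did not follow, with 3 of 17 higher and 1 lower (median 0.29). CLDN4 was at 10.52 in SU86.86, 8.49 in HPDE and 7.29 in PANC1. Of 7 simple keratins 3 were higher and 1 lower (median 0.85), but none of the 4 left without probe sets that can cross-hybridise was called (median 0.51). Clade B serpins, several of them squamous antigens, had 5 of 8 lower and 1 higher, and 2 of 9 kallikreins were lower and none higher. Without probe sets that can cross-hybridise, none of 6 kallikreins was lower, and KLK10 differed by -0.16 in place of -2.99.

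**Figure D4:**
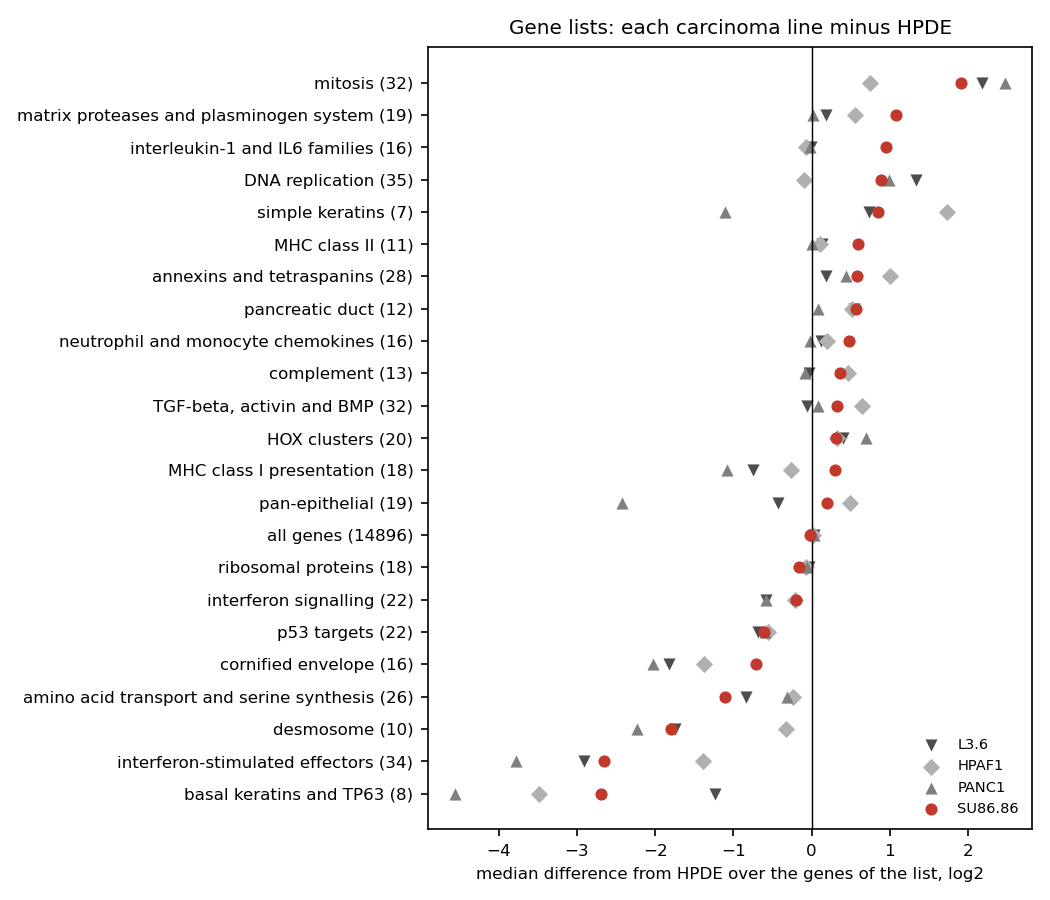
Median log2 difference from HPDE over the genes compared in each list (number of genes in brackets), with 1 point for each of the 4 carcinoma lines; all 4 use the same HPDE array. SU86.86 is the rightmost of the 4 lines for the interleukin-1 and IL6 families, matrix proteases, MHC class II, chemokines, MHC class I and cornified envelope. By a small margin it is also rightmost for pancreatic duct and interferon signalling. It is leftmost for amino acid transport and serine synthesis and, by little, for ribosomal proteins and all genes. For interferon-stimulated effectors, desmosome and mitosis it lies among the other lines.

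Mitosis genes were higher in SU86.86 for 30 of 32 compared and lower for none (median 1.91), where 8.44% of all genes were higher. PANC1 and L3.6 had 31 higher each and HPAF1 10. AURKB, a kinase that corrects chromosome attachment, was at 11.73 in SU86.86, 8.27 in HPDE, 11.45 in PANC1, 9.78 in HPAF1 and 11.70 in L3.6. SU86.86, PANC1 and L3.6 were alike and HPAF1 lay between them and HPDE. Of 35 DNA replication genes 15 were higher and none lower (median 0.89). RRM2, a subunit of ribonucleotide reductase, was at 13.22 in SU86.86, 8.81 in HPDE, 13.21 in PANC1, 11.18 in HPAF1 and 13.34 in L3.6. Of 23 homologous recombination and Fanconi genes 7 were higher and 1 lower. The labels do not give the density or growth state of the cultures at harvest.

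The G1 regulators contained some of the lowest genes of the comparison. Of 20 compared, 5 were higher and 5 lower, where 8.44% of all genes were higher and 7.72% lower. CCND2, a D-type cyclin, was at 7.15 in SU86.86, 11.85 in HPDE and between 7.09 and 7.37 in the other lines, so HPDE alone was high. CDKN2A, which encodes the inhibitor p16, was at 8.02 in SU86.86, 13.17 in HPDE, 7.97 in PANC1, 13.45 in HPAF1 and 12.47 in L3.6. Its neighbour CDKN2B, which encodes p15, was at 6.59 in SU86.86, 9.64 in HPDE, 6.53 in PANC1, 11.48 in HPAF1 and 8.36 in L3.6. SU86.86 and PANC1 were low for both and the other 3 lines were not. Of 22 p53 target genes 8 were lower and 2 higher (median -0.61), with 8 lower in PANC1, 7 in HPAF1 and 9 in L3.6. GDF15, a stress cytokine, was at 7.12 in SU86.86 and between 9.34 and 12.46 in the other 4 lines, but its other probe set differed by -0.33.

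Genes on the short arm of chromosome 9 beside CDKN2A were also low in SU86.86. In RefSeq order on GRCh38.p14 the run is FOCAD, KLHL9, MIR31HG, MTAP, CDKN2A and CDKN2B, with the type I interferon genes among them. KLHL9, an adaptor of a ubiquitin ligase, was at 6.89 in SU86.86, 11.14 in HPDE, 9.39 in PANC1, 10.16 in HPAF1 and 9.91 in L3.6. FOCAD was at 6.68 in SU86.86, 8.60 in HPDE, 8.39 in PANC1, 8.80 in HPAF1 and 8.65 in L3.6. Its difference was -1.92, or -0.89 with its probe sets averaged. Its other probe set, near the filter in every line, differed by 0.14, at 7.44 in SU86.86 and 7.31 in HPDE. On the probe sets used for both genes, SU86.86 was below the level filter and the other 4 lines were above it, PANC1 included.

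MIR31HG, the host transcript of a microRNA, was at 7.49 in SU86.86, 9.03 in HPDE, 8.73 in PANC1, 10.03 in HPAF1 and 8.37 in L3.6. MTAP, the enzyme that salvages methylthioadenosine, was at 6.93 in SU86.86, 8.29 in HPDE and 9.83 in PANC1 on the probe set used. On 3 other MTAP probe sets PANC1 was at 6.41, 6.50 and 6.64, as low as SU86.86 at 6.43, 6.62 and 6.47, so the place of MTAP below every other line rests on 1 probe set. MLLT3, the next gene above the filter before FOCAD, was at 9.12 in SU86.86 and 7.59 in HPDE, and DMRTA1, next after CDKN2B, was at 7.98 and 7.95. The low run thus did not reach MLLT3 on the FOCAD side. DMRTA1 lay near the filter in every line, at 7.54 to 7.98, so it cannot show whether the run ends after CDKN2B. ACER2 (-0.77) and ELAVL2 (-2.16), farther out on either side, were also lower in SU86.86 than in HPDE. ELAVL2 was at 6.60 in SU86.86, 6.55 in PANC1 and 6.52 in HPAF1. DNA copy number was not measured.

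**Figure D5:**
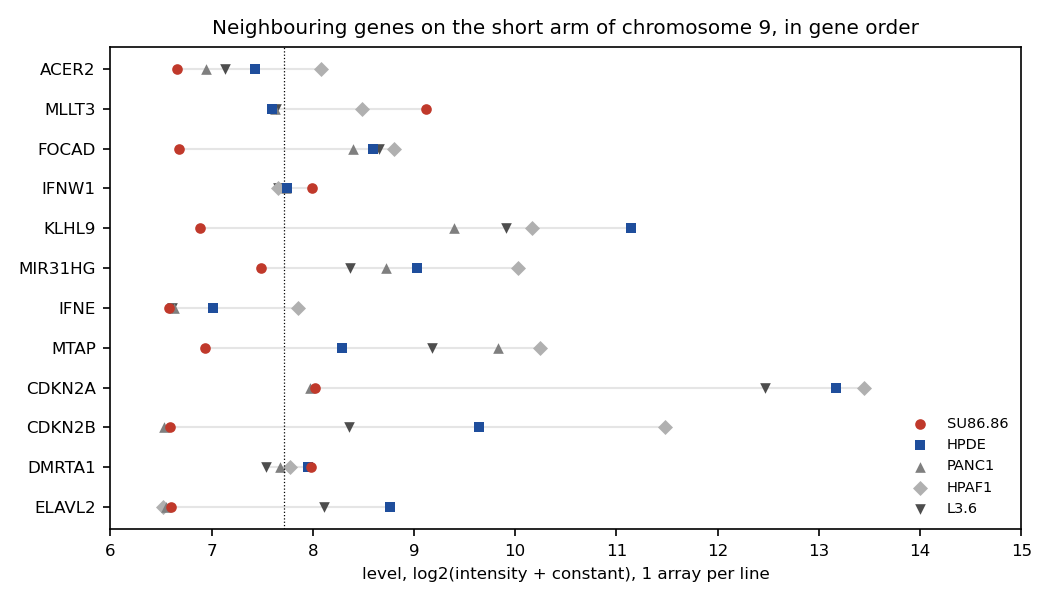
Level of the genes above the filter along the short arm of chromosome 9, in gene order from top to bottom and not to distance, as log2(intensity + constant), 1 array per line; the dotted line is the level filter at 7.72. SU86.86 is the lowest line from FOCAD to MTAP apart from IFNW1, level with PANC1 for CDKN2A and CDKN2B, and high for MLLT3.

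Amino acid transport and serine synthesis genes were the metabolic list with the lowest median difference in SU86.86. Some of them are induced by ATF4 when amino acids are short. Of 26 compared, 14 were lower and 1 higher (median -1.11), where 7.72% of all genes were lower and 8.44% higher. PANC1 had 8 lower, HPAF1 6 and L3.6 12. PSAT1, which makes phosphoserine, was at 9.90 in SU86.86, 12.53 in HPDE, 12.36 in PANC1, 11.88 in HPAF1 and 11.67 in L3.6. ASNS, asparagine synthetase, was at 9.19 in SU86.86, 12.09 in HPDE, 12.19 in PANC1, 12.66 in HPAF1 and 10.64 in L3.6. SU86.86 was at least 2-fold below every other line for both. TRIB3, a pseudokinase of this response, was at 9.83 in SU86.86 and 13.75 in HPDE, with PANC1 at 10.70 and L3.6 at 10.32. The 1 higher gene, SLC7A1, an arginine transporter, was at 12.37 in SU86.86 and 11.13 to 11.19 in the other 4 lines. Without probe sets that can cross-hybridise the median of the list was -0.43, with 5 of 16 genes lower and 1 higher. The medium and feeding of the cultures are not given, and their part in these values was not tested.

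The remaining genes below every other line had varied roles. CRNDE, a long non-coding RNA, showed the widest gap, at 6.44 in SU86.86, 10.13 in HPDE, 11.37 in PANC1, 10.05 in HPAF1 and 10.79 in L3.6. SCD, the desaturase that makes monounsaturated fatty acids, was at 10.25 in SU86.86, 13.10 in HPDE, 12.13 in PANC1, 13.66 in HPAF1 and 11.93 in L3.6, and its 3 other probe sets all passed 2-fold. HAS3, a hyaluronan synthase, was at 7.26 in SU86.86 and between 9.37 and 9.51 in the other 4. NDRG1, a stress-responsive gene, was at 7.92 in SU86.86, 11.49 in HPDE, 9.50 in PANC1, 10.55 in HPAF1 and 9.42 in L3.6. Of the 35 genes in this class, 18 had another probe set above the filter and 11 of those had another that passed 2-fold in the same direction. For the 185 genes above every line the numbers were 104 and 83. KLF13 is listed in the class, but its difference was 0.08 without probe sets that can cross-hybridise.

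SU86.86 and HPDE also lay on one side together, both at least 2-fold above PANC1, HPAF1 and L3.6 for 37 genes and below them for 11. FN1, fibronectin, was at 11.24 in SU86.86 and 10.73 in HPDE against 7.47 to 8.23 in the others. FYN, a SRC-family kinase, was at 10.99 and 10.37 against 7.63 to 7.76, and BEX4 was at 10.13 and 9.73 against 6.37 to 6.59. On the low side, HOXC10 was at 8.12 and 7.56 against 9.86 to 10.96, and BHLHE40, a clock and hypoxia repressor, at 9.97 and 9.38 against 11.34 to 12.27. S100A9, IL1A and IL1B, described above, belong to the high side.

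Some tumour antigen and gut-type genes were higher, where 8.44% of all genes were higher and 7.72% lower. Of 18 CEACAM and pancreatic tumour antigen genes 5 were higher and 2 lower, while HPAF1 had 10 higher. AGR2, a disulfide isomerase of secretory cells, was at 12.77 in SU86.86, 7.53 in HPDE, 13.48 in PANC1, 13.52 in HPAF1 and 9.62 in L3.6. CEACAM6, a carcinoembryonic antigen relative, was at 12.18 in SU86.86, 7.60 in HPDE, 7.37 in PANC1, 14.13 in HPAF1 and 8.48 in L3.6, so SU86.86 and HPAF1 shared it. Of 19 gastric and intestinal genes 4 were higher and none lower. TFF1, a gastric trefoil peptide, was at 11.26 in SU86.86 and between 8.25 and 8.67 in the other 4, whereas TFF2 at 10.65 was near HPAF1 at 10.01. Of 11 mucins 1 was higher, close to the share over all genes, and none lower.

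Transcription factor genes gave a mixed picture, beside 8.44% of all genes higher and 7.72% lower. Of 20 HOX genes 7 were higher and none lower (median 0.31), all but HOXC6 of the HOXB cluster. HOXB7 was at 11.43 in SU86.86, 7.18 in HPDE, 11.33 in PANC1, 7.50 in HPAF1 and 10.87 in L3.6, so it was below the filter in HPDE and HPAF1. Of 19 endoderm and duct transcription factors 4 were higher and 2 lower. FOXA1, a pioneer factor of endoderm, was at 10.16 in SU86.86, 7.79 in HPDE and 11.10 in L3.6, and SOX17 was at 8.25 in SU86.86 and 7.01 to 7.25 in the other 4. ELF3, an epithelial ETS factor, was at 8.07 against 10.10. Of 11 oncofetal genes 3 were higher and 1 lower, with LIN28B at 8.57 in SU86.86, 9.16 in PANC1 and 6.39 to 6.56 in the other 3. Of 10 cancer-testis antigens 3 were higher and none lower, and MAGEB2 was at 8.31 in SU86.86 and 6.88 to 6.91 in the others.

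Lists of signalling receptors and their ligands held called genes in both directions, as did all genes, with 8.44% higher and 7.72% lower. Of 20 EGF receptor family genes 4 were higher and 1 lower, with TGFA, an EGF receptor ligand, at 12.24 against 10.41. Of 29 other receptor tyrosine kinase genes 5 were higher and 2 lower, with ROR1 at 9.14 in SU86.86 and 6.86 to 8.12 in the other 4. Of 30 WNT genes 3 were higher and 2 lower, close to the shares over all genes. DKK1, a secreted WNT antagonist, was at 12.69 against 9.36 and was as high in the other 3 carcinoma lines, between 12.49 and 12.93. Of 22 Notch genes 2 were higher and 5 lower, and of 8 IGF-binding proteins 3 were higher and 2 lower. Of 22 BCL2 family and death genes 4 were higher and 3 lower. BID, a pro-apoptotic member, was at 12.08 in SU86.86 and 9.73 to 10.66 in the other 4. Of 28 annexins and tetraspanins 7 were higher and none lower.

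Metabolic and drug-handling lists, here and in the next paragraph, complete the comparison. Their counts stand beside 8.44% of all genes higher and 7.72% lower. Of 19 gemcitabine and nucleotide genes 7 were higher and 2 lower (median 0.31). NT5E, the ecto-enzyme CD73 that makes adenosine, was at 13.37 in SU86.86, 8.88 in HPDE, 11.79 in PANC1, 11.85 in HPAF1 and 10.41 in L3.6. CDA, cytidine deaminase, was at 10.43 in SU86.86, 8.37 in HPDE, 7.03 in PANC1, 10.97 in HPAF1 and 7.11 in L3.6, high in SU86.86 and HPAF1. Of 9 ABC transporters 1 was higher and 1 lower, close to the shares over all genes. Of 31 glycolysis and hypoxia genes 8 were higher and 5 lower. DDIT4, a stress inhibitor of mTOR, was at 9.10 in SU86.86, 13.80 in HPDE, 9.74 in PANC1, 11.98 in HPAF1 and 12.32 in L3.6.

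Of 12 metallothionein and zinc transport genes 6 were higher and 1 lower (median 1.00, or 0.19 without probe sets that can cross-hybridise), and PANC1 had the same counts. Of 21 sterol and fatty acid genes 1 was higher and 7 lower. Of 23 NRF2 targets 5 were higher and 2 lower, with TXNRD1, thioredoxin reductase, at 13.28 against 10.50. Of 29 aldehyde dehydrogenase and retinoid genes 2 were higher and 5 lower, and of 16 prostaglandin genes 2 were higher and none lower. SLCO2A1, the prostaglandin transporter, was at 10.15 in SU86.86 and 7.58 to 8.02 in the other 4. The control lists were near level, with none of 18 ribosomal protein genes called (median -0.16) and 1 of 21 housekeeping genes higher and 1 lower (median 0.19).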

How the data were processed

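RNA of 5 pancreatic cell lines was hybridised to 5 one-colour Affymetrix arrays, from biotin-labelled target made with a one-cycle kit, per the labels' protocols. The authors deposited a linear intensity for each of 54675 probe sets; their summarisation, background correction and scaling are not given in the sources used here. Since arrays had nearly equal medians, no further normalization was applied. Depth does not apply to arrays, and their number, 1 per line, limits the precision.

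Here 62 control probe sets were left out and log2(intensity + 71.1) was taken. Of the probe sets, 41091 name 1 gene, 1801 name several and 11721 others are not named in the annotation; only the first were used. In all 41037 were matched to current symbols through the RefSeq table of GRCh38.p14. The probe set with the highest mean stood for a gene, and genes whose highest line reached 140.2 intensity units were kept. Lines were subtracted, and 2-fold was the threshold, with no test, since there is 1 array per line. The procedure was tested on simulated data. Python 3.11.15, pandas 2.3.3 and numpy 2.4.6 were used.

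Genes were named by a rule: the 12 highest and 12 lowest differences; the 15 widest gaps of SU86.86 above and below every other line; the 10 widest gaps of SU86.86 with HPDE above and below the rest; up to 5 largest and 2 smallest differences per gene list; and EPCAM, KRT8, KRT18, KRT19 and SOX9. A gene with another probe set 2-fold the opposite way was not named for a difference or gap. Not all genes of the rule are described, and genes outside it were chosen after their values were seen. The lines, the lists and the rule were chosen with earlier results of these data known. Alternatives were other constants, normalizations, filters, probe set rules, thresholds and lines compared. A probe set whose name ends in _x_at or _s_at can match several transcripts.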

Additional observations from a re-analysis of the deposited data

Results flagged for a closer look

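For 4 genes SU86.86 stood at least 2-fold above HPDE while PANC1, HPAF1 and L3.6 each stood at least 2-fold below it; the difference between the lines was not tested. CD274 differed by 2.32 in SU86.86, and its levels are given in the report. SLC43A3, a nucleobase transporter, differed by 2.54, at 12.11 in SU86.86, 9.57 in HPDE, 7.07 in PANC1, 7.20 in HPAF1 and 7.35 in L3.6. Its other probe set differed by 2.42. CLDN11, a claudin, differed by 2.0, at 11.58 in SU86.86, 9.59 in HPDE and 6.76 to 7.25 in the other 3, but by 0.61 on its other probe set. IL1A differed by 1.07, the smallest of the 4, and by 0.33 with its probe sets averaged.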

How the results depend on the processing

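No paired analysis was possible because each line has 1 array and every sample carries the same replicate number. Leaving out a replicate was not possible for the same reason. At a 4-fold threshold 358 genes were higher and 215 lower, with 35 above and 5 below every other line. The share of called genes that were higher was 52.2% and ranged from 50.8% to 55.7% over the 10 other constants, normalizations, filters and probe set rules. The 185 genes above every other line became 312 without PANC1 among the lines compared, 322 without HPAF1 and 321 under the looser class. The 35 genes below every other line became 81 with no constant, 61 with a constant of 16, 23 with a constant at the median, 16 where a gene's probe sets were averaged, 75 without PANC1, 73 without HPAF1, 90 without L3.6 and 228 under the looser class. With probe sets averaged, 134 of the 185 and 16 of the 35 were in the class again. Of the list medians under the alternatives, 561 stayed close, 37 moved and 1 reversed, the clade B serpins at 0.30 without probe sets ending in _x_at or _s_at. Medians that moved include the chemokines (3.22) and HOX genes (2.89) with a stricter level filter, and the desmosome with no level filter (-0.87). Among named genes 3975 values stayed close, 76 moved and 7 reversed. The reversed ones were DST (-0.20 with probe sets averaged and -3.83 without _x_at and _s_at sets), KLF13 (0.08 without those sets), NOTCH3 (0.28 with no constant) and LIFR (-0.42 with no constant, -0.39 with a constant of 16 and -0.27 after quantile normalization). On a given probe set a smaller constant can only widen a difference. The NOTCH3 value with no constant, and the LIFR values with none or 16, thus came from another probe set, which then had the highest mean. The cause of the other changes was not tested.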

Other observations

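A group of genes best known from lymphocytes and other blood cells was above every other line in SU86.86, although the leukocyte markers of the report were not. These genes were picked after their values were seen, so their number says nothing by itself. LCP1, which encodes the actin bundler L-plastin, was at 12.03 in SU86.86, 7.66 in HPDE, 7.53 in PANC1, 7.44 in HPAF1 and 9.39 in L3.6. CORO1A, a coronin of leukocytes, was at 10.60 in SU86.86, 7.31 in HPDE and 8.78 in HPAF1, the next line. LCK, the T cell SRC-family kinase, was at 10.22 in SU86.86 and between 7.72 and 8.54 in the other 4, and its other probe set differed by 2.77. CD69, an activation marker of lymphocytes, was at 9.42 in SU86.86 and 6.33 to 6.49 in the others.

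RAC2, the GTPase of blood cells, was at 11.87 in SU86.86, 8.85 in HPDE and 10.79 in HPAF1. NFATC2 was at 10.21 against 6.72, and TRBC1, a T cell receptor constant region, at 9.56 against 7.26, with 2 other probe sets that both passed 2-fold. Beside these, CD3E was at 7.79 in SU86.86 and 7.96 in HPDE, CD3D at 8.55 and 8.43, and CD14 at 7.01 and 7.71. LYZ was at 6.73 and 6.74. The summed intensity of the 11 leukocyte markers was 1168 in SU86.86 and 1189 in HPDE.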
